A study of Mus musculus with 16 samples.

Results

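The transcripts described here encode the machinery that loads peptides onto MHC class II molecules, and they were followed in myeloid-derived suppressor cells (MDSCs) of tumor-bearing mice. Of the 24421 gene symbols counted in every sample, 10 made up the set, chosen by name: the chains H2-Aa, H2-Ab1 and H2-Eb1, the invariant chain Cd74, the peptide editor genes H2-DMa, H2-DMb1 and H2-DMb2, the editor's inhibitor H2-Oa, and the transcription regulators Ciita and Rfx5. Spleens came from 8 C57BL/6 mice that all carried B16.F10 melanoma, 4 of them wild type (WT) and 4 lacking Nlrp3 (Nlrp3-/-), the gene for an inflammasome sensor. Monocytic M-MDSCs (CD11b high Ly6C+ Ly6G-) and granulocytic G-MDSCs (CD11b high Ly6C- Ly6G+) were sorted from each of these mice, which gave 4 groups of 4 samples, each sample from a single mouse. The Nlrp3-/- allele carries an EGFP cassette and is lost in every tissue of the host, while the injected tumor cells kept Nlrp3. No sample came from a mouse without a tumor, and the study used mice matched for sex and age. RNA was read from its 3′ end with QuantSeq 3′ mRNA-seq, and each sample held 2295967 to 6079866 reads assigned to genes. Levels are CPM, read counts scaled to a common library size, on a single scale for all 16 samples. Fold changes, each with its standard error (SE), come from a separate fit for each comparison, and a differentially expressed gene (DEG) had an FDR under 0.05 in edgeR's quasi-likelihood test and a fold change above 1.5. Nlrp3, measured from its 3′ end and so outside the inserted cassette, had 219 to 1365 reads in the WT samples and 4 to 59 in the Nlrp3-/- samples. Monocyte markers summed to 7080 to 13900 CPM in M-MDSCs and 845 to 1490 CPM in G-MDSCs, and neutrophil markers to 1090 to 6130 and 70600 to 111000 CPM, so the samples matched their labels, with the top of the M-MDSC neutrophil range in WT replicate 2.

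MHC class II molecules carry peptides from the endosomal pathway to CD4+ T cells. The α and β chains are assembled with the invariant chain Cd74, which fills the groove until proteases trim it, and H2-DM then exchanges the remnant for other peptides while H2-DO restrains H2-DM. CIITA is the coactivator that switches these genes on by docking to RFX, CREB and NF-Y factors at their promoters. Dendritic cells, B cells and macrophages hold most class II protein, whereas MDSCs are defined by their restraint of T cells.

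In the mm10 annotation (GENCODE M21) the 7 chain, editor and inhibitor genes lie together in the MHC on chromosome 17, from H2-Oa at 34092340 to the end of H2-Eb1 at 34316674. H2-Aa runs from 34282744 to 34287823 on the minus strand, and H2-Ab1 from 34257689 to 34269419 on the plus strand. Ciita lies on chromosome 16 (10480059 to 10528418, plus strand) and Rfx5 on chromosome 3 (94954075 to 94961561, plus strand). Reads were counted by strand. On its own strand Cd74 overlaps the microRNA gene Mir5107, which the count tables list too, and H2-DMa overlaps CR974462.3, which they do not list.

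The promoters of the loading genes are shown because their shared letters are the docking platform of the regulators measured below. RefSeq promoters of the GRCm38.p6 assembly, 250 bases before to 50 after the start, matched 7 of the 10 members by symbol (H2-Ab1, Cd74 and Ciita did not match). In the 120-base windows that follow, 5′ to 3′ on the gene's strand, capitals mark GATTGG, the letters of the Y box that NF-Y binds, and GNAAC found upstream of it. The windows were chr17:34287844-34287963 (minus strand) for H2-Aa, chr17:34305727-34305846 (plus) for H2-Eb1, chr17:34153051-34153170 (plus) for H2-DMb1, chr17:34145109-34145228 (plus) for H2-DMb2 and chr17:34092239-34092358 (plus) for H2-Oa.
H2-Aa: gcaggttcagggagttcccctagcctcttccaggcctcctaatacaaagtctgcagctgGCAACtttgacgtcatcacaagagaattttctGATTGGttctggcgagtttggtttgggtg
H2-Eb1: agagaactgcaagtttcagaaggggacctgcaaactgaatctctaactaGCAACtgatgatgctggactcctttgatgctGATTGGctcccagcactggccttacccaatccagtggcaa
H2-DMb1: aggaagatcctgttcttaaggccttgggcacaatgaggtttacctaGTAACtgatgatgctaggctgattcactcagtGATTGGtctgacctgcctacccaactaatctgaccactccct
H2-DMb2: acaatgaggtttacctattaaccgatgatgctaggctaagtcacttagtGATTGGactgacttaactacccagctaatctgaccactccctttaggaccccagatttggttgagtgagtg
H2-Oa: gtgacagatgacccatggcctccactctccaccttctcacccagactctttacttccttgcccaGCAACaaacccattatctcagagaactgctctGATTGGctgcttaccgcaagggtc
GATTGG began 49 bases before the start of H2-Aa, 60 before H2-Eb1, 62 before H2-DMb1, 91 before H2-DMb2 and 44 before H2-Oa. GNAAC lay 32 bases upstream of it in H2-Aa, H2-DMb1 and H2-Oa and 31 bases upstream in H2-Eb1, and no GNAAC was found at a spacing of 18 to 45 bases in H2-DMb2. H2-Ob, which encodes the partner chain of H2-Oa, held the same pair with a spacing of 29 bases. Of 32851 promoters of the same length, 16.1% held GATTGG on either strand and 1.57% held the pair, both motifs on 1 strand at that spacing. GNAAC was chosen after these letters had been seen, and a match is a description of the letters only. H2-DMa has 2 RefSeq promoters without the pair, and Rfx5 held GATTGG only on the opposite strand.

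**Figure D1:**
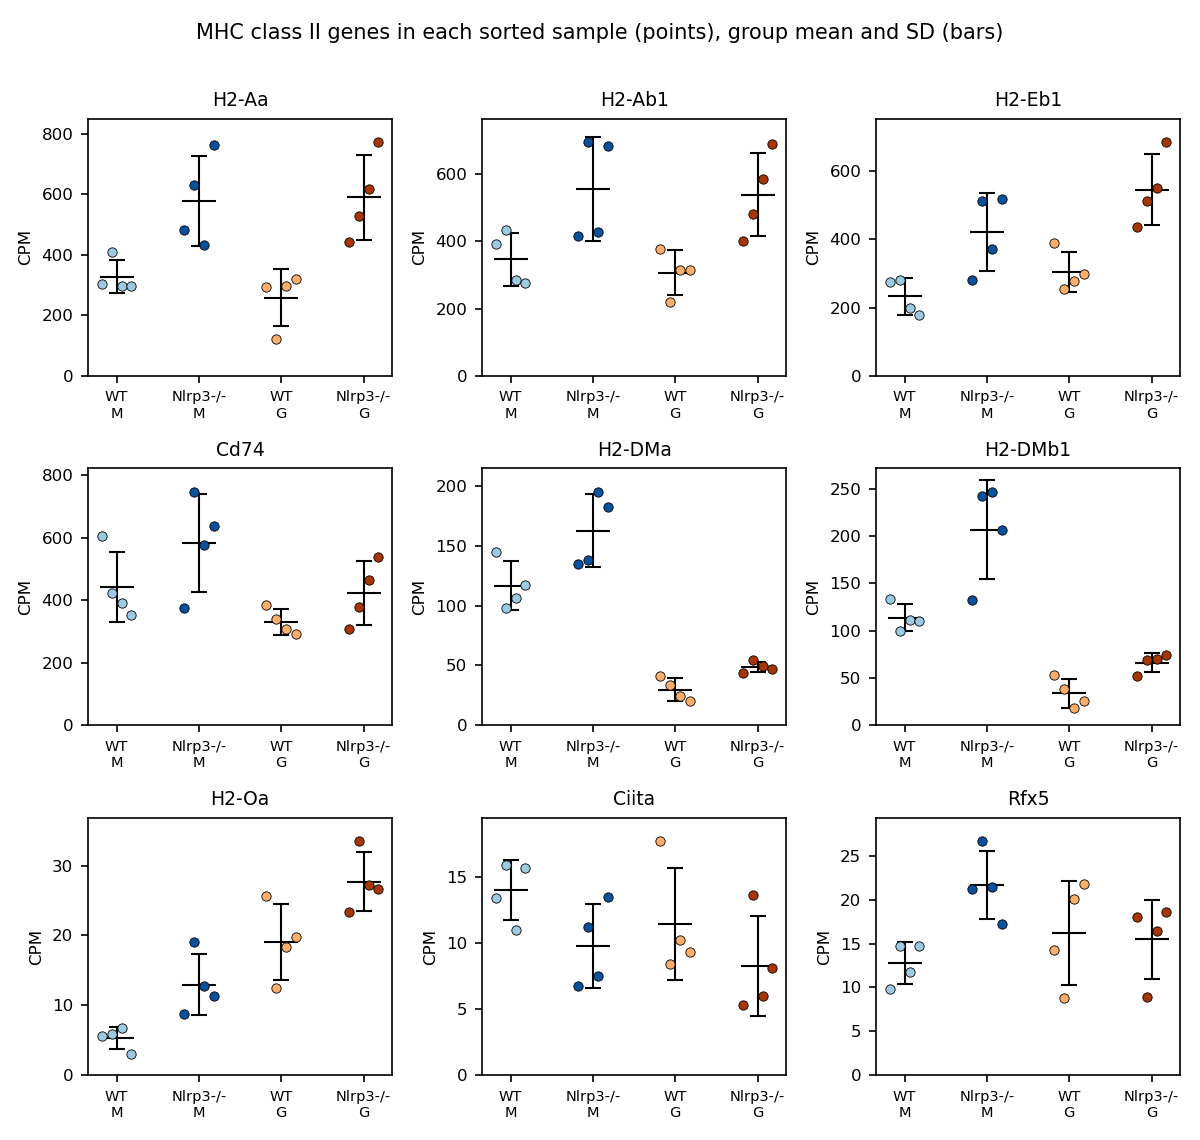
Each panel plots 1 gene, with CPM on a linear axis from 0 and the 4 groups along the bottom (M, M-MDSCs; G, G-MDSCs). Points are single samples and bars the mean and SD of 4. The chains sit higher in Nlrp3-/- than in WT in both subsets, with H2-Aa at 433 to 762 against 296 to 408 CPM in M-MDSCs, while H2-DMa and H2-DMb1 separate the subsets.

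The first comparison asked whether class II genes differ between Nlrp3-/- and WT M-MDSCs. Of the 9 members tested, 5 were DEGs and all 5 were higher in Nlrp3-/-: H2-Aa, H2-Eb1, H2-DMb1, H2-Oa and Rfx5. Over all 9986 genes tested, 10.6% were DEGs, 3.51% higher and 7.10% lower in Nlrp3-/-. In 3 of the 9 members the Nlrp3-/- samples all lay above the WT samples, as they did in 7.58% of tested genes. The members' median log2 fold change was 0.79, beside a median of 0.07 over all tested genes, and 8 of the 9 were above 0.

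H2-Aa encodes the α chain of the I-A molecule. It stood at 304, 408, 298 and 296 CPM in WT M-MDSCs (replicates 1 to 4) and at 483, 629, 433 and 762 CPM in Nlrp3-/- M-MDSCs. The groups did not overlap, and the log2 fold change was 0.84 ± 0.20 (SE, n = 4 per group, FDR = 0.0220). H2-Ab1, the β chain of the same molecule, had 391, 433, 284 and 277 CPM in WT and 415, 695, 429 and 683 CPM in Nlrp3-/-. Replicates 1 and 3 of Nlrp3-/- lay inside the WT range, and its log2 fold change of 0.70 ± 0.22 did not pass the test (FDR = 0.0598). H2-Eb1, the β chain of I-E, had 275, 282, 198 and 177 CPM in WT and 281, 511, 372 and 518 CPM in Nlrp3-/-. The groups met at 1 pair of samples, 282 CPM in WT and 281 CPM in Nlrp3-/-, and the log2 fold change was 0.87 ± 0.22 (FDR = 0.0287). C57BL/6 mice make no I-E α chain, and its gene, counted as the pseudogene H2-Ea-ps, reached 0.702 CPM in WT M-MDSC replicate 2 and had no read in the other samples. Cd74, the invariant chain, had 604, 424, 391 and 352 CPM in WT and 375, 747, 576 and 638 CPM in Nlrp3-/-. These ranges overlapped across most of their width, and the log2 fold change of 0.42 ± 0.22 was not significant (FDR = 0.226).

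The editor and its inhibitor came next in the pathway. H2-DMb1, the β chain of H2-DM, had 134, 100, 111 and 110 CPM in WT and 133, 242, 247 and 206 CPM in Nlrp3-/- (log2 fold change 0.88 ± 0.19, FDR = 0.0146). Nlrp3-/- replicate 1 was at the top of the WT range and the other 3 were far above it. H2-DMa, the α chain, had 145, 98.1, 106 and 117 CPM in WT and 135, 138, 195 and 182 CPM in Nlrp3-/-, and its log2 fold change of 0.50 ± 0.18 missed the threshold (FDR = 0.0859). H2-DMb2, a second β-chain gene closely similar to H2-DMb1, had 0 to 2 reads in each WT M-MDSC sample and 0 in every Nlrp3-/- M-MDSC sample, so it was not tested. Reads from these near-identical copies may have been split between them, which leaves the H2-DMb1 counts uncertain to that extent. H2-Oa, the α chain of H2-DO, had 5.57, 5.90, 6.77 and 3.08 CPM in WT and 8.71, 19.1, 12.7 and 11.3 CPM in Nlrp3-/-. The groups did not overlap, and H2-Oa had the largest log2 fold change of the members here, 1.26 ± 0.31 (FDR = 0.0255), on 9 to 42 reads per WT sample.

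Of the 2 regulators, Rfx5, a subunit of the RFX complex that binds class II promoters, had 9.83, 14.7, 11.8 and 14.7 CPM in WT and 21.3, 26.7, 21.5 and 17.2 CPM in Nlrp3-/-, with no overlap and a log2 fold change of 0.79 ± 0.22 (FDR = 0.0406). Ciita, the coactivator itself, had 13.4, 15.9, 11.0 and 15.7 CPM in WT and 6.74, 11.2, 7.51 and 13.5 CPM in Nlrp3-/-. It was the 1 member below 0 in this comparison, with a log2 fold change of -0.49 ± 0.27 that was not significant (FDR = 0.233). In bulk samples such as these, fewer cells that express a gene and less RNA per cell cannot be told apart.

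In the same samples other markers moved. Of the 11 tested macrophage markers, 7 were DEGs higher in Nlrp3-/- M-MDSCs and 0 were lower, beside 3.51% and 7.10% of all tested genes. The 12 listed genes summed to 331 to 470 CPM against 173 to 195 CPM in WT. Mertk was near 0 in both genotypes, at 0 in every WT M-MDSC sample and at 0 to 4 reads per Nlrp3-/- M-MDSC sample (mean 0.351 CPM). The 12 dendritic cell markers summed to 343 to 371 CPM against 251 to 336 CPM, with Clec10a the only DEG of 8 tested. Wdfy4 stood at 147 to 171 CPM in Nlrp3-/- and 108 to 134 CPM in WT, without overlap, and Itgax, which encodes CD11c, had a mean of 34.5 CPM against 17.3 CPM. On the same list Ccr7 and Dpp4 had lower means in Nlrp3-/-, 17.4 and 17.3 CPM against 34.8 and 23.3 CPM, with overlap. Flt3 was at means of 17.9 CPM in Nlrp3-/- and 17.4 CPM in WT, and 6 of the 8 tested had a log2 fold change above 0. Xcr1 and Zbtb46, which define conventional dendritic cells, were near 0 in both genotypes, at means of 0.363 and 0.653 CPM in Nlrp3-/- and 0.369 and 0.532 CPM in WT. The 12 B-cell markers in the files summed to 198 to 384 CPM against 199 to 251 CPM, with Ly6d higher and Ms4a1, which encodes CD20, lower (log2 fold change -0.99, FDR = 0.0467). Cd79a and Pax5, which define B cells, were at means of 1.37 and 0.0716 CPM in Nlrp3-/- M-MDSCs. The part of macrophage and dendritic cell RNA in the class II result was not tested.

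Leaving out any 1 sample turned the sign of none of the 9 members, but the calls depended on several samples. The number of members called was 0 without WT replicate 4, 0 without Nlrp3-/- replicate 2, 0 without Nlrp3-/- replicate 4, 2 without WT replicate 3 and 3 without WT replicate 2, and it was 2 (H2-Aa and Rfx5) after offsets for GC content and transcript length. The fold changes of the 5 called members stayed above 0 in every one of these fits, at 0.65 to 0.98 on the log2 scale for H2-Aa, 0.72 to 0.99 for H2-Eb1, at least 0.76 for H2-DMb1, 0.98 to 1.39 for H2-Oa and 0.63 to 0.88 for Rfx5 with 1 sample left out. Rfx5 lost its call in 7 of these 8 fits, the other 4 members in 3 or 4. All 5 calls held with DESeq2's Wald test, where 6 members were called.

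**Figure D2:**
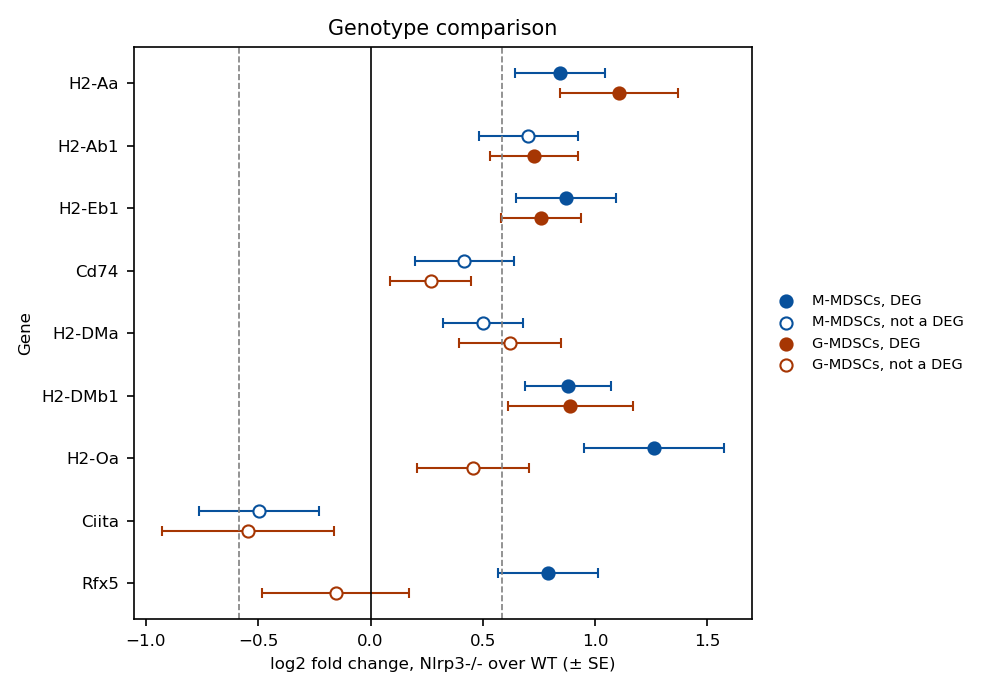
Points give the log2 fold change of each member, Nlrp3-/- over WT, in M-MDSCs (blue) and G-MDSCs (brown), with bars for ± SE and dashed lines at a fold change of 1.5 either way. Filled points are DEGs: H2-Aa, H2-Eb1 and H2-DMb1 are filled in both subsets, and Ciita is the gene left of 0 in both.

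The same comparison in G-MDSCs gave 4 DEGs among the 9 members tested, all higher in Nlrp3-/-: H2-Aa, H2-Ab1, H2-Eb1 and H2-DMb1. Over all 9273 genes tested, 16.4% were DEGs, 4.70% higher and 11.7% lower in Nlrp3-/-. The members' median log2 fold change was 0.62 and that of all tested genes 0.03. The M-MDSCs and G-MDSCs of a mouse come from the same spleen, so the 2 genotype comparisons rest on the same 8 mice.

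H2-Aa had 294, 120, 298 and 321 CPM in WT G-MDSCs and 443, 528, 617 and 772 CPM in Nlrp3-/- G-MDSCs. WT replicate 2 was far below the other WT samples, the groups did not overlap, and the log2 fold change was 1.11 ± 0.26 (FDR = 0.0104). H2-Ab1 had 378, 219, 315 and 316 CPM in WT and 402, 482, 584 and 688 CPM in Nlrp3-/-, a log2 fold change of 0.73 ± 0.20 (FDR = 0.0202). H2-Eb1 had 389, 255, 277 and 297 CPM in WT and 436, 512, 550 and 685 CPM in Nlrp3-/-, a log2 fold change of 0.76 ± 0.18 (FDR = 0.00949). All 3 chains were without overlap between the groups, and with H2-DMa 4 of the 9 members were, beside 12.0% of tested genes in this direction. Cd74 had 384, 340, 308 and 291 CPM in WT and 307, 379, 466 and 539 CPM in Nlrp3-/-, and its log2 fold change of 0.27 ± 0.18 was not significant (FDR = 0.328). In G-MDSCs the invariant chain thus overlapped between genotypes where the chains it escorts did not.

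H2-DMb1 had 53.3, 38.2, 18.2 and 26.0 CPM in WT and 51.7, 69.0, 70.1 and 74.9 CPM in Nlrp3-/- (log2 fold change 0.89 ± 0.28, FDR = 0.0401), with 1 Nlrp3-/- sample just under the highest WT sample. H2-DMa had 41.0, 33.8, 24.4 and 20.6 CPM in WT and 43.8, 54.5, 49.6 and 47.4 CPM in Nlrp3-/-. Its groups did not overlap, yet its log2 fold change of 0.62 ± 0.23 missed the FDR threshold (FDR = 0.0720). H2-Oa had 25.7, 12.5, 18.4 and 19.8 CPM in WT and 23.3, 33.5, 27.3 and 26.7 CPM in Nlrp3-/- (log2 fold change 0.46 ± 0.25, FDR = 0.222). Rfx5, at 14.3, 8.78, 20.1 and 21.8 CPM in WT and 18, 8.87, 16.5 and 18.6 CPM in Nlrp3-/-, had a log2 fold change of -0.16 ± 0.33 (FDR = 0.779). Ciita had 17.7, 8.44, 10.2 and 9.33 CPM in WT and 5.31, 13.6, 6.00 and 8.12 CPM in Nlrp3-/- on 23 to 55 reads per sample, and its log2 fold change was -0.55 ± 0.38 (FDR = 0.348). H2-DMb2 had 0 to 4 reads per G-MDSC sample and was not tested.

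Of the 11 macrophage markers tested in G-MDSCs, 8 were DEGs higher in Nlrp3-/- and 0 were lower, beside 4.70% and 11.7% of all tested genes. The list summed to 1060 to 1310 CPM against 479 to 815 CPM in WT. The dendritic cell list summed to 560 to 613 CPM against 391 to 482 CPM with 0 DEGs among 5 tested. Of these, Wdfy4 (277 to 289 against 160 to 203 CPM) and Itgax (209 to 267 against 150 to 203 CPM) did not overlap between genotypes, and Xcr1 was near 0 in both, with a mean of 0.0833 CPM in WT and no read in Nlrp3-/-. Wdfy4 and Itgax made up most of the list's sum, at means of 284 and 240 CPM in Nlrp3-/-. Ccr7 had a lower mean in Nlrp3-/-, 48.2 against 63.9 CPM, with overlap, and 3 of the 5 tested had a log2 fold change above 0. Monocyte markers summed to 1310 to 1490 CPM in Nlrp3-/- against 845 to 1190 CPM in WT, and NK-cell markers to 53.7 to 91.9 against 24 to 47.8 CPM, both without overlap. DEGs higher in Nlrp3-/- were 1 of 8 tested monocyte markers and 1 of 4 tested NK-cell markers, and 0 were lower. Log2 fold changes were above 0 in 5 of these 8 and 3 of these 4. Csf1r went from means of 494 to 815 CPM and Gzma from 20 to 51.9 CPM. Klf4 (45.4 to 28.3 CPM) and Eomes (5.67 to 1.84 CPM) had lower means in Nlrp3-/-. B-cell markers summed to 590 to 786 CPM against 467 to 671 CPM, with Cd22 and Ly6d higher, Ms4a1 lower (log2 fold change -1.57, FDR = 7.51e-04) and Pax5 at 0 in all Nlrp3-/- samples. The part of these cells in the class II result was not tested. Without Nlrp3-/- replicate 3 or without Nlrp3-/- replicate 4 the number of members called was 2, H2-Aa and H2-Eb1. H2-DMb1 lost its call in 6 of the 8 fits that left out 1 sample (also without WT replicates 2, 3 or 4 or Nlrp3-/- replicate 2), with a log2 fold change of 0.69 to 1.18 over the 8 fits, while H2-Aa and H2-Eb1 kept theirs in all 8. After GC and length offsets the number called was 1, H2-Aa.

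**Figure D3:**
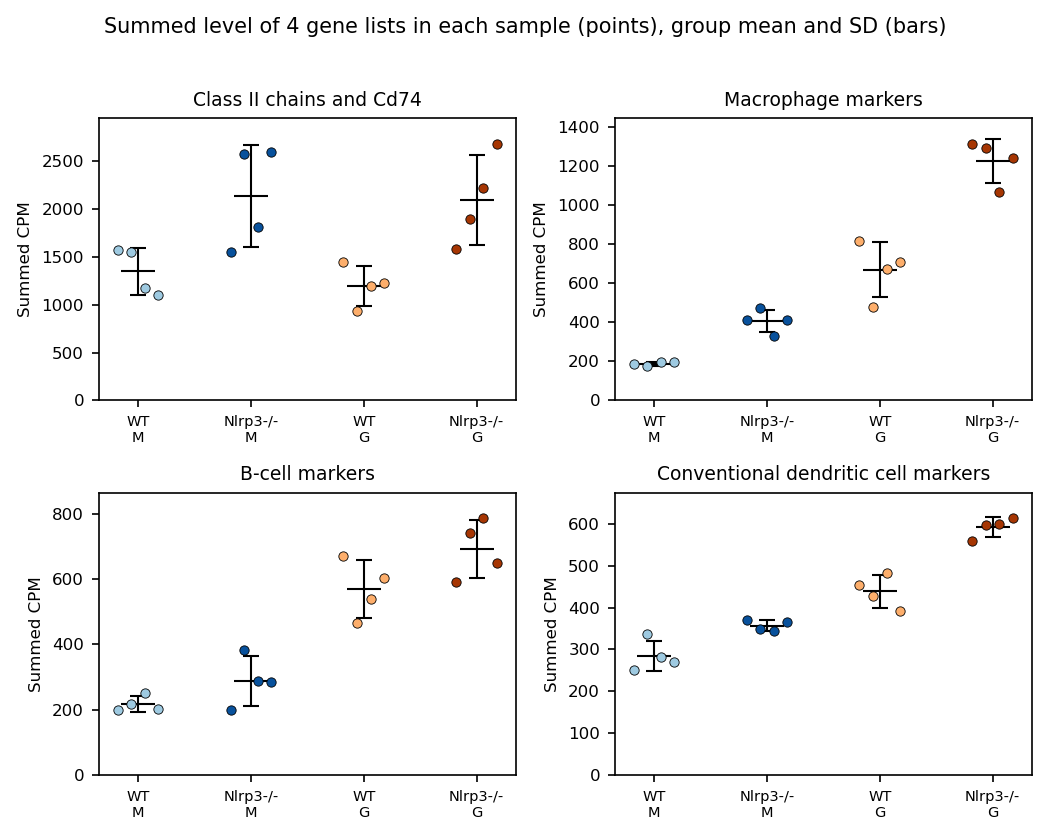
Each panel plots the summed CPM of a gene list per sample, with the mean and SD of 4 samples in each group. The sum of H2-Aa, H2-Ab1, H2-Eb1 and Cd74 overlapped between the 2 subsets, at 1100 to 1570 CPM in WT M-MDSCs and 933 to 1440 CPM in WT G-MDSCs, while the macrophage and B-cell sums were higher in G-MDSCs of both genotypes. Most of the macrophage difference between subsets is Slc40a1, at means of 447 CPM in WT G-MDSCs and 6.02 CPM in WT M-MDSCs. Of the 11 tested macrophage markers, 5 were DEGs higher in WT G-MDSCs and 1 was lower, beside 26.3% and 27.1% of all tested genes. C1qa was at means of 28.6 CPM in WT G-MDSCs and 7.11 CPM in WT M-MDSCs, and Adgre1 at 50.1 and 75.5 CPM.

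Whether the genotype difference itself differed between the subsets was tested over all 16 samples. Of the 9 members, 0 were called and 0 had an unadjusted p under 0.05 in edgeR's quasi-likelihood test of the interaction, where 3 of 10696 genes (0.0280%) were called and 480 had an unadjusted p under 0.05, and DESeq2 also called 0 members. The largest differences of log2 fold changes, G-MDSCs minus M-MDSCs, were -0.83 ± 0.41 for Rfx5, -0.70 ± 0.40 for H2-Oa and 0.37 ± 0.36 for H2-Aa, each with an FDR of 0.992. Rfx5 and H2-Oa, DEGs in M-MDSCs and not in G-MDSCs, are therefore not shown to differ between the subsets in their genotype effect.

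The subsets were then compared within each genotype, where G-MDSCs and M-MDSCs were sorted from the same mice. In WT mice 3 of the 9 members were DEGs, with H2-DMa and H2-DMb1 lower and H2-Oa higher in G-MDSCs. Of all 9739 tested genes 53.3% were DEGs, 26.3% higher and 27.1% lower in G-MDSCs. In Nlrp3-/- mice the same 3 genes were DEGs in the same directions, where 51.0% of 10071 tested genes were DEGs, 23.7% higher and 27.4% lower. The chains and Cd74, in contrast, overlapped between the subsets.

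H2-DMa was at 20.6 to 41.0 CPM in WT G-MDSCs and 98.1 to 145 CPM in WT M-MDSCs, a log2 fold change of -1.96 ± 0.23 (FDR = 1.88e-05), or 3.89-fold lower. In Nlrp3-/- mice it was 3.60-fold lower (log2 fold change -1.85 ± 0.17, FDR = 7.59e-07). H2-DMb1 was 3.36-fold lower in WT (log2 fold change -1.75 ± 0.28, FDR = 2.25e-04) and 3.36-fold lower in Nlrp3-/- G-MDSCs (log2 fold change -1.75 ± 0.20, FDR = 4.95e-06). Every G-MDSC sample was below every M-MDSC sample of its genotype for both editor chains, as it was for 26.4% of tested genes in WT and 24.0% in Nlrp3-/-. Across the 4 groups both chains ran in the order WT G-MDSCs, Nlrp3-/- G-MDSCs, WT M-MDSCs and Nlrp3-/- M-MDSCs, with overlap between genotypes in both subsets for H2-DMb1 and in M-MDSCs for H2-DMa.

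H2-Oa moved the other way. It was 3.49-fold higher in WT G-MDSCs (log2 fold change 1.80 ± 0.31, FDR = 3.35e-04) and 1.99-fold higher in Nlrp3-/- G-MDSCs (log2 fold change 0.99 ± 0.27, FDR = 0.00600), without overlap in either genotype, beside 25.4% of tested genes without overlap in this direction in WT and 26.2% in Nlrp3-/-. From low to high its groups were WT M-MDSCs at 5.33 ± 1.58 CPM (SD, n = 4), Nlrp3-/- M-MDSCs at 12.9 ± 4.41, WT G-MDSCs at 19.1 ± 5.41 and Nlrp3-/- G-MDSCs at 27.7 ± 4.26, and each of the last 3 overlapped its neighbour in this order. H2-Ob, the β chain of H2-DO, which was named for this pairing after its values had been seen, was higher in G-MDSCs as well (log2 fold change 1.12 ± 0.22, FDR = 1.08e-03 in WT and 1.25 ± 0.20, FDR = 1.19e-04 in Nlrp3-/-). B-cell markers, whose cell type is known to express H2-DO, moved with this result. DEGs higher in G-MDSCs were 11 of 11 tested in WT and 10 of 11 in Nlrp3-/-, beside 26.3% and 23.7% of all tested genes. The list summed to 467 to 671 against 199 to 251 CPM in WT and 590 to 786 against 198 to 384 CPM in Nlrp3-/-. The part of B-cell RNA in the H2-Oa level was not tested.

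For the remaining members the log2 fold change between subsets in WT was -0.34 ± 0.27 for H2-Aa, -0.17 ± 0.21 for H2-Ab1, 0.39 ± 0.20 for H2-Eb1, -0.42 ± 0.19 for Cd74, -0.29 ± 0.28 for Ciita and 0.35 ± 0.30 for Rfx5, with an FDR of 0.0778 for Cd74 and higher for the others. In Nlrp3-/- mice Cd74 was lower in G-MDSCs at an FDR of 0.0329 but by 1.49-fold, under the fold change required. The scaling sets where 0 lies between subsets. Normalization factors were 1.20 to 1.46 in M-MDSCs and 0.723 to 0.805 in G-MDSCs, and scaling by library size alone moved the median log2 fold change of all genes from -0.05 to -0.79 in WT and from -0.12 to -0.83 in Nlrp3-/-. With all genes shifted down together, 7 members were called in each genotype, and the added calls and turned signs follow from that common shift. H2-Aa, H2-Ab1, Cd74 and Ciita then counted as lower in G-MDSCs of both genotypes and Rfx5 in those of Nlrp3-/- mice, H2-Eb1 turned to -0.35 and -0.46, and H2-Oa in Nlrp3-/- fell to 0.28 and lost its call, while H2-DMa and H2-DMb1 kept theirs. GC and length offsets instead added H2-Eb1 as higher in WT G-MDSCs (log2 fold change 0.60, FDR = 0.0187).

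**Figure D4:**
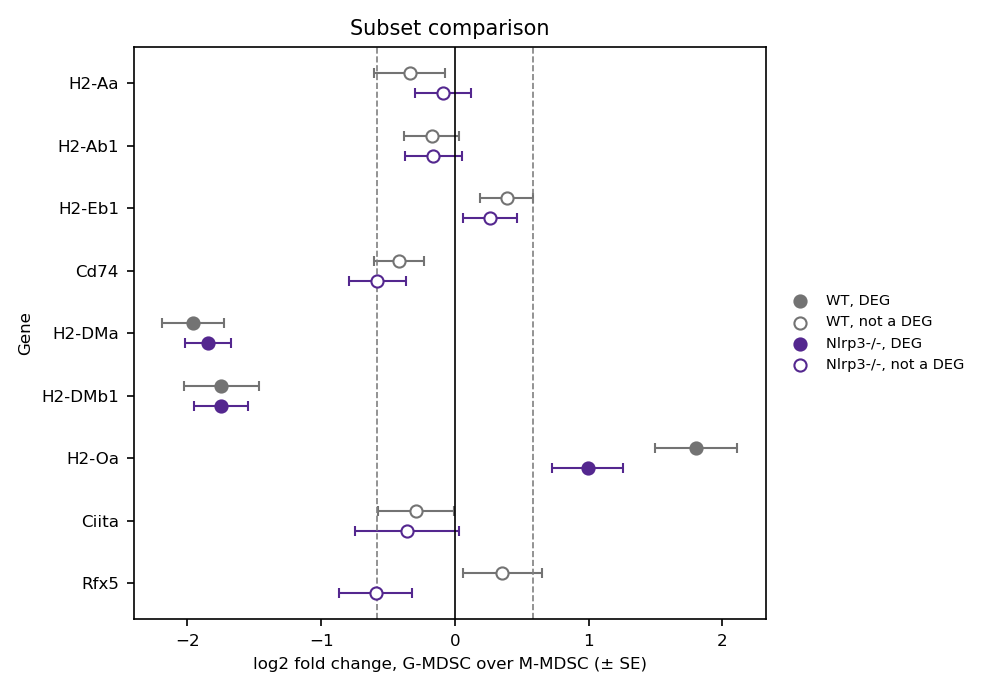
Points give the log2 fold change of each member, G-MDSCs over M-MDSCs, in WT (grey) and Nlrp3-/- mice (purple), with bars for ± SE and dashed lines at a fold change of 1.5 either way. The filled points are the DEGs, H2-DMa and H2-DMb1 on the left, near -1.9 in H2-DMa, and H2-Oa on the right.

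The wider pathway was followed in 33 further genes from fixed lists, 32 of which could be tested in each genotype comparison: other class II chains, regulators, genes of endosomal processing, the ubiquitin ligases March1 and March8, and costimulatory molecules. In M-MDSCs 1 was a DEG higher in Nlrp3-/- and 1 lower, with a median log2 fold change of 0.09. In G-MDSCs 3 were higher and 2 lower, with a median of 0.19. Over all tested genes, 3.51% were DEGs higher and 7.10% lower in Nlrp3-/- M-MDSCs, and 4.70% and 11.7% in Nlrp3-/- G-MDSCs. Pathway genes that were no DEG ranged from -0.63 to 0.72 in M-MDSCs and from -0.59 to 0.90 in G-MDSCs on the log2 scale.

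Among the 15 regulators, the DEGs in M-MDSCs were Irf1, a factor induced by interferon-γ that acts on the Ciita promoter, and Nfyb, a subunit of NF-Y. Irf1 had 254, 331, 291 and 276 CPM in WT and 376, 509, 375 and 577 CPM in Nlrp3-/- M-MDSCs (log2 fold change 0.70 ± 0.18, FDR = 0.0279). Nfyb was lower in Nlrp3-/- in both subsets, at 46.3 ± 8.77 CPM in WT and 26.2 ± 3.53 CPM in Nlrp3-/- M-MDSCs (SD, n = 4; log2 fold change -0.79 ± 0.19, FDR = 0.0236) and at 88.4 ± 32.7 and 50.3 ± 8.13 CPM in G-MDSCs (log2 fold change -0.89 ± 0.23, FDR = 0.0160). NF-Y is the factor of the GATTGG letters shown above. In G-MDSCs Irf1 had a log2 fold change of 0.69 with an FDR of 0.0549, it was called there in 5 of 11 other settings, and its genotype effects in the 2 subsets differed by 0.10 ± 0.32 (FDR = 0.993). The other 13 regulators were no DEG in M-MDSCs, and in G-MDSCs 0 of the 15 were higher.

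Of the 8 genes of endosomal processing (proteases, the protease inhibitor Cst3 and the reductase Ifi30), 0 were DEGs in M-MDSCs and 2 were higher in Nlrp3-/- G-MDSCs. Ctsb, the protease cathepsin B, had 125, 128, 164 and 133 CPM in WT and 266, 207, 217 and 239 CPM in Nlrp3-/- G-MDSCs (log2 fold change 0.67 ± 0.15, FDR = 0.00807). Ifi30, which reduces disulfide bonds of antigens in the endosome, had 45.7, 25.7, 45 and 48.6 CPM in WT and 50.3, 74.4, 91.2 and 92.2 CPM in Nlrp3-/- G-MDSCs (log2 fold change 0.82 ± 0.24, FDR = 0.0304). The genotype effects in G-MDSCs minus M-MDSCs were 0.57 ± 0.22 for Ctsb and 0.66 ± 0.32 for Ifi30 (interaction FDR = 0.992 for each). Ctsb and Ifi30 are therefore not shown to differ between the subsets in their genotype effect. Both genes were far lower in G-MDSCs than in M-MDSCs, by a log2 fold change of -1.89 ± 0.16 for Ctsb (FDR = 1.34e-06) and -4.04 ± 0.24 for Ifi30 in WT (FDR = 8.53e-08), as was Ctss, the cathepsin that trims the invariant chain (log2 fold change -3.28 ± 0.24, FDR = 3.76e-07).

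Of the 5 costimulatory genes, 0 were DEGs in M-MDSCs. In G-MDSCs Cd80, a ligand of CD28 and CTLA-4, was lower in Nlrp3-/-, with 64.0, 61.8, 77.7 and 62.6 CPM in WT and 22.6, 38.7, 28.1 and 40.3 CPM in Nlrp3-/- (log2 fold change -1.12 ± 0.21, FDR = 0.00282). Cd83, a protein that keeps class II molecules at the cell surface, was higher at 86.2 ± 33.6 CPM against 42.9 ± 17.7 CPM (SD, n = 4; log2 fold change 0.92 ± 0.30, FDR = 0.0488), with overlap between the groups. The genotype effects in G-MDSCs minus M-MDSCs were -0.67 ± 0.32 for Cd80 and 0.31 ± 0.52 for Cd83 (interaction FDR = 0.992 for each). Neither gene is therefore shown to differ between the subsets in its genotype effect. Cd80 was a G-MDSC transcript in these samples, 3.53 ± 0.19 higher than in M-MDSCs on the log2 scale in WT (FDR = 5.21e-08). After GC and length offsets, Nfyb, Irf1, Ifi30 and Cd83 lost their calls, and Ctsb and Cd80 kept theirs. With 1 sample left out, the call was lost in 6 of 8 fits for Cd83, 5 of 8 for Irf1 in M-MDSCs, 5 of 8 for Nfyb in M-MDSCs and 2 of 8 in G-MDSCs, 4 of 8 for Ifi30, and 0 of 8 for Ctsb and Cd80.

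**Figure D5:**
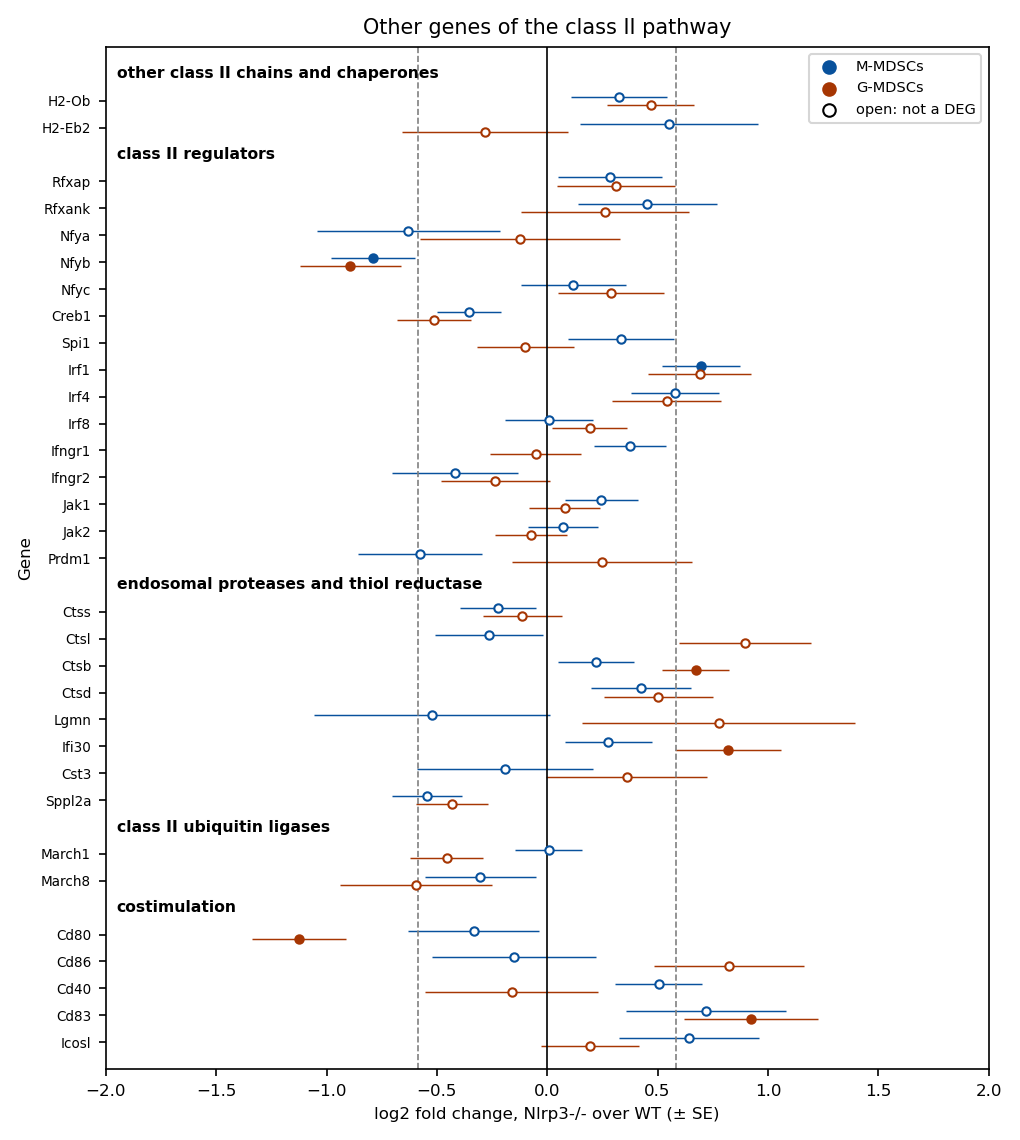
Rows are the tested genes of the fixed pathway lists, grouped by role, and points give the log2 fold change, Nlrp3-/- over WT, ± SE in M-MDSCs (blue) and G-MDSCs (brown). Filled points are DEGs and dashed lines mark a fold change of 1.5 either way, with Cd80 at -1.12 farthest to the left.

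Finally, the genes that varied most like the chains were sought among 10696 genes. The profile was the mean of H2-Aa, H2-Ab1, H2-Eb1 and Cd74 on the log2 CPM scale, each centred over the 16 samples, and the measure was the root mean square distance from it, where 0 is an identical profile. Among the nearest 10 genes outside the set were Gtpbp1 at 0.236, Pex14 at 0.242, Cabin1 at 0.245, Fkbp15 at 0.251, Arpc5l at 0.253, Pld3 at 0.256, Tmem219 at 0.258, Gga3 at 0.263 and Clptm1 at 0.263. Gtpbp1 went from 101 ± 16.7 CPM in WT to 167 ± 41.1 CPM in Nlrp3-/- M-MDSCs and from 95.7 ± 20.1 to 171 ± 27.6 CPM in G-MDSCs (SD, n = 4). Pex14 went from 12.9 ± 1.53 to 27.1 ± 7.55 CPM and from 13.4 ± 2.72 to 23.8 ± 6.78 CPM. The points of this comparison share depth, mice and scaling. By the same measure the 4 genes of the profile lay at 0.0542 for H2-Ab1, 0.261 for H2-Eb1, 0.282 for H2-Aa and 0.322 for Cd74, distances that are shortened because each gene is part of the mean and so not comparable with those of the outside genes. Rfx5 lay at 0.501, Ciita at 0.715, H2-Oa at 0.839, H2-DMb1 at 0.905 and H2-DMa at 0.956. The tested B-cell markers lay between 0.63 for Cd79b and 1.38 for Ms4a1, and among the macrophage markers the nearest was Adgre1 at 0.434, with C1qa at 1.12. This distance also grows where a gene changes more than the chains or differs between subsets, so a distant gene can change in the same direction. C1qa went from means of 7.11 to 38.1 CPM in M-MDSCs and from 28.6 to 90.1 CPM in G-MDSCs, WT to Nlrp3-/-.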

How the data were processed

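Per the labels and the study's methods, the authors sequenced QuantSeq 3′ mRNA-seq libraries (amplified for 15 or 17 cycles), aligned reads to mm10 with HISAT2 2.1.0 and counted them per gene with HTSeq on the sense strand, and deposited 1 table of raw read counts per sample. All 24421 symbols were used, and no 2 libraries were identical. Here counts were filtered with filterByExpr, scaled by TMM and tested with edgeR 4.0.16 (glmQLFit and glmQLFTest, R 4.3.3) on the 8 samples of each comparison, or on all 16 for the interaction, with Benjamini-Hochberg adjustment over all tested genes. Precision is limited by 4 mice a group; 3 reads correspond to 0.348 to 1.17 CPM. Log2 CPM used a prior count of 2. In simulated counts, 78.5% of 200 genes changed 3-fold were recovered at 9986 genes for the M-MDSC genotype comparison, 68.5% at 9273 genes for the G-MDSC one, 77% and 71.5% for the subset comparisons (9739 genes in WT, 10071 in Nlrp3-/-) and 41.5% at 10696 genes for the interaction. False calls made up 4.85%, 4.2%, 6.67%, 6.54% and 6.74% of the calls in the same order. The members' genotype changes were smaller, at most 2.4-fold (H2-Oa in M-MDSCs), and recovery at such sizes was not simulated. G-MDSCs and M-MDSCs with the same number carry the same spleen number in the labels and were taken as the same mouse, and their deviations from the group means correlated at 0.00821 to 0.397. Numbers do not pair mice of different genotype. Alternatives covered scaling, filters, tools (DESeq2 1.42.0), GC and length offsets, the replicate block and each sample left out. Genes named were the 10 members, pathway DEGs with a few further genes, and the nearest 10 profiles; 1 regulator and 1 of these 10 are not reported here. The members and lists were chosen with earlier results of these data known.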

Additional observations from a re-analysis of the deposited data

Results flagged for a closer look

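H2-Aa in WT M-MDSC replicate 2 stood at 408 CPM, apart from the other 3 samples of its group at 296 to 304 CPM. H2-Aa in WT G-MDSC replicate 2 stood at 120 CPM, apart from the other 3 at 294 to 321 CPM. Each was singled out because its gap to the nearest sample was 0.921 and 0.863 of the group's range, above Dixon's critical value for a group of 4. Both samples came from the same mouse, which was thus the highest in 1 subset and the lowest in the other. Of 36 groups examined (9 members in 4 groups) 2 were singled out, where chance gives about 1.8.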

How the results depend on the processing

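In M-MDSCs the genotype comparison called 5 members, and leaving out 1 sample gave 0 to 6 (450 to 1783 genes in all, against 1060). GC and length offsets gave 2 (668 genes in all), the replicate number as a block 0 (425), and the block with these offsets 0 (48). In G-MDSCs it called 4, and leaving out 1 sample gave 2 to 5. The offsets gave 1 (965 genes in all, against 1522), the block 2 (985) and both together 1 (396). The numbers join different mice here, so the block does not pair samples of a mouse. Deviations of same-numbered samples correlated at -0.452 to 0.0177 across genotypes. Whether same-numbered samples shared a processing step was not tested. Between subsets, where numbers join the same mouse, 3 members were called in each genotype, the block called 3 in each and changed no other call, and leaving out 1 sample gave 3 in WT and 3 to 4 in Nlrp3-/-. Library size alone gave 7 in each. Apart from that common shift of all genes, the cause was not tested.

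The recomputed values numbered 1289, all gene values apart from a recount of the nearest profiles, which kept all 10. Of these values, 1146 stayed the same, for a gene in its sign and its side of the threshold. Another 96 lost a call, 33 gained one and 14 changed sign, with none of these a DEG in both fits. For Cd74 in G-MDSCs by genotype, the offsets gave -0.12 and the block with offsets -0.14. Rfx5 there reached 0.0049 with the block and offsets, and leaving out 1 sample gave -0.35 to 0.033, above 0 without WT replicate 4 or Nlrp3-/- replicate 2. Library size alone turned H2-Eb1 between subsets to -0.35 in WT and -0.46 in Nlrp3-/-, and Rfx5 in WT to -0.38, as all genes moved down together, and the offsets moved H2-Eb1 in WT up to 0.60 (edgeR FDR = 0.0187; 0.61 and 0.00242 with the block). H2-Aa between Nlrp3-/- subsets lay at 0.033 in the model of all 16 samples, 0.017 with offsets, 0.016 with the block and offsets, and leaving out 1 sample gave -0.21 to 0.086, above 0 without M-MDSC replicate 4, G-MDSC replicate 1 or G-MDSC replicate 2. At 23 to 113 reads Ciita, and at 9 to 136 reads H2-Oa, are the tested members least resolved by depth, and H2-DMb2, at 0 to 4 reads, could not be tested.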

Other observations

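The class I presentation list, read for comparison, held 17 tested genes. In M-MDSCs 1 was a DEG higher in Nlrp3-/-, the peptide transporter subunit Tap1 (log2 fold change 0.60, FDR = 0.0277), and 1 was lower, the disulfide isomerase Pdia3 (log2 fold change -0.82, FDR = 0.0390), which was named after its values had been seen. In G-MDSCs 0 were higher, with Tap1 at 0.23 (FDR = 0.361), and Pdia3 was the 1 lower gene (log2 fold change -1.01, FDR = 0.00423). Over all tested genes, 3.51% were DEGs higher and 7.10% lower in Nlrp3-/- M-MDSCs, and 4.70% and 11.7% in Nlrp3-/- G-MDSCs. The heavy chain H2-K1 was higher in Nlrp3-/- M-MDSCs without overlap, at 1018 ± 112 against 697.1 ± 116 CPM (SD, n = 4). Its FDR was 0.0452 in edgeR's test, but its 1.49-fold change was under the fold required. Canx in G-MDSCs was lower without overlap at an FDR of 0.0271, also under that fold at 1.48-fold. The list's median log2 fold change was -0.10 in M-MDSCs and 0.04 in G-MDSCs, beside 0.79 and 0.62 for the class II members.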
